A study of Mus musculus with 4 samples.

Results

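p53, encoded by Trp53 in the mouse, is a transcription factor that arrests growth, promotes repair or triggers death in stressed cells. The genes described here are Trp53, its ubiquitin ligase gene Mdm2, and 8 further genes that p53 is known to switch on: Trp53inp1, Ccng1, Zmat3, Phlda3, Sesn1, Gdf15, Btg2 and Plk2. These 10 genes were taken by symbol, with no threshold on any value, and all were found among the 49585 genes in the count files. They were chosen with earlier results of these data known. In the textbook circuit, Mdm2 protein marks p53 for destruction while p53 raises Mdm2 transcription, so the pair forms a negative feedback loop. p53 is controlled mainly at the level of protein stability, which RNA levels do not report. Many of its targets also answer to other factors: Gdf15 to the stress factor ATF4, and Btg2 and Plk2 to growth factor and calcium signals.

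The study sequenced messenger RNA of proliferating C2C12, a myoblast line from C3H mice, in a group with retroviral overexpression of C/EBPβ (n = 2 libraries) and a group carrying the empty pLXSN vector (n = 2 libraries). Both groups were kept in DMEM with 10% serum, and both went through G418 (1200 μg/ml for 7 days) as pools of transduced cells, followed by 48 h of growth. Pools are not clones, and the labels do not say whether replicates came from separate transductions, and p-values therefore reflect only how far these libraries differ, possibly for technical reasons. C/EBPβ, the product of Cebpb, is a leucine-zipper factor that acts in fat, liver and inflammatory gene programmes.

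Libraries held 38656497 and 92027838 assigned counts in C/EBPβ and 40912955 and 37566321 in empty vector cells. Cebpb stood at 483 and 473 CPM in C/EBPβ libraries and at 85.0 and 76.8 CPM in empty vector libraries, with any reads of the vector copy included. CPM here is the count of a gene relative to the library's counts over tested genes, scaled by TMM. Myoblast markers were present in both groups: Des (desmin) had 855 and 919 CPM in C/EBPβ and 1296 and 1335 CPM in empty vector libraries. All 7 myoblast markers passed the test, 5 lower and 2 higher in C/EBPβ cells. By log2 fold change (C/EBPβ over empty vector), Itga7 (-1.42) and Cdh15 (-1.25) were lower, and Pax7 (0.94) and Myf5 (0.60) higher. Of 8 fibroblast markers 6 had enough counts and 5 were higher, with a summed level of 982 and 575 CPM in C/EBPβ against 144 and 119 CPM in empty vector libraries, most of it Col1a1, while Lum and Thy1 had at most 1 count. Among 10 macrophage and leukocyte markers 4 were tested and 3 were higher (summed 37.0 and 38.5 CPM in C/EBPβ, 21.3 and 19.1 CPM in empty vector), and Tyrobp, Adgre1, Itgam and Cd3e had 0 counts throughout. Of 8 endothelial markers 2 were tested and 1 was higher (summed 1.21 and 1.26 CPM in C/EBPβ, 0.705 and 0.529 CPM in empty vector), and Emcn had 0 counts. The part of these marker differences in the results below was not tested. In a pooled culture, fewer cells of a kind and less RNA per cell cannot be told apart.

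All 10 genes had enough reads to be tested, with 793 to 17235 counts per library. C/EBPβ cells had less RNA for Plk2, Gdf15 and Ccng1 and more RNA for Trp53inp1. Plk2, a polo-like kinase that p53 induces, was the largest difference of the 10, with a log2 fold change (C/EBPβ over empty vector) of -0.89. Thus 4 of 10 genes passed an adjusted p of 0.05. Each adjusted p of a gene comes from edgeR's quasi-likelihood test, adjusted by Benjamini-Hochberg over all genes tested, unless another source is named. Over all 15078 genes tested, 24.9% passed. Lower calls numbered 3 of 10, against a background of 10.8%, and higher calls 1 of 10, against 14.1%. The median log2 fold change of the 10 genes was -0.20 and that of all tested genes 0.00055. The count of 4 fell to 2 without empty vector replicate 1 (Plk2 and Trp53inp1). In 8 of the 10 genes the libraries of the groups did not overlap, 6 of them lower and 2 higher in C/EBPβ cells, but 66.2% of all tested genes met that criterion (32.9% lower, 33.3% higher). The replicates of a group differed by a median of 0.09 and at most 0.35 on the log2 scale, the largest difference being that of Btg2 in C/EBPβ cells.

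**Figure D1:**
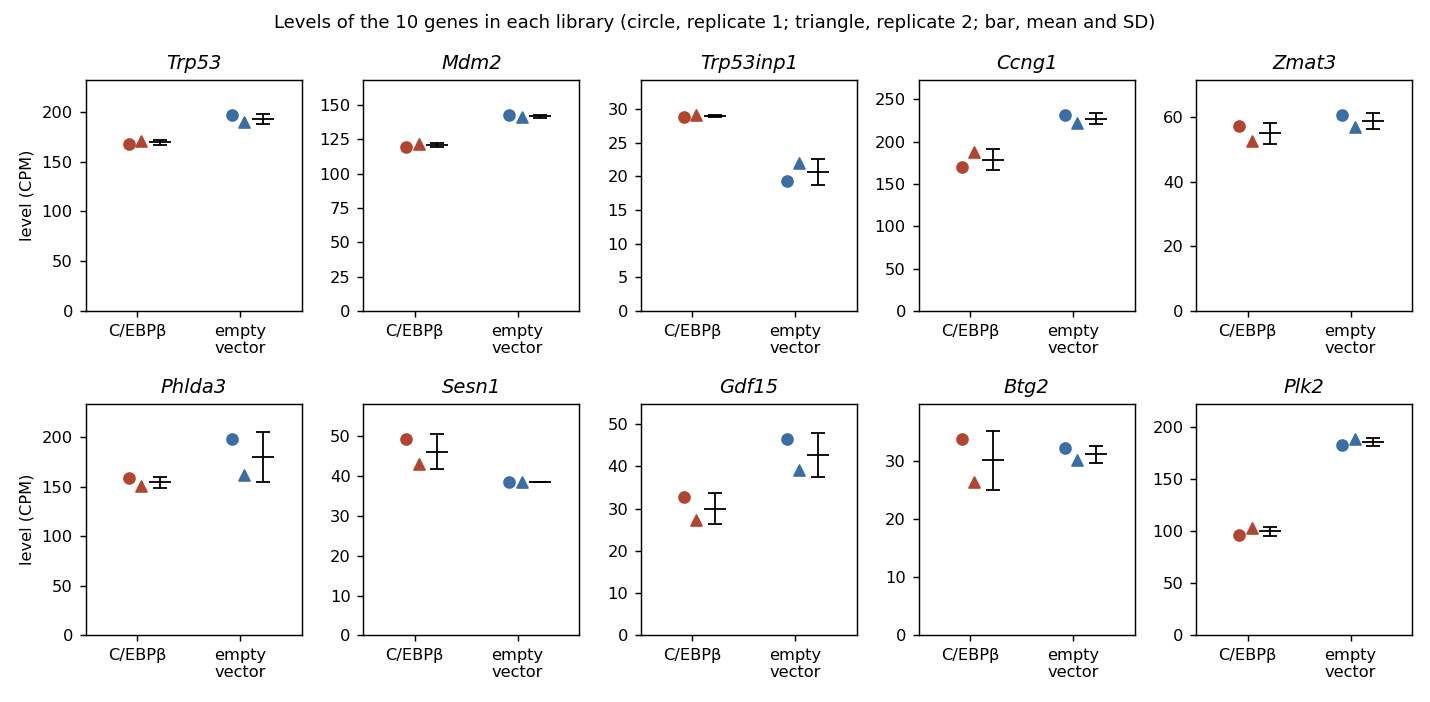
Level of each of the 10 genes (y axis, CPM from 0) in the 2 C/EBPβ libraries (left in each panel) and the 2 empty vector libraries (right), with circles for replicate 1, triangles for replicate 2, and a bar for the mean with its SD. Plk2 shows the widest gap, 96.8 and 103 against 183 and 188 CPM, and only Zmat3 and Btg2 have groups that overlap.

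Trp53 itself (ENSMUSG00000059552, chromosome 11 from 69580359 to 69591873, plus strand, GRCm38) was abundant in both groups. It measured 168 and 171 CPM in C/EBPβ libraries and 197 and 189.6 CPM in empty vector libraries. Both C/EBPβ libraries were lower, yet the difference was small: log2 fold change -0.19 (SE 0.08, 95% interval -0.37 to -0.0064, adjusted p = 0.124). The call was absent in all 12 alternatives of the processing, with values between -0.22 and -0.16. The interval leaves room for a fall of Trp53 RNA of up to 0.37 on the log2 scale and for almost none. The pseudogene Trp53-ps held 1 and 3 counts in C/EBPβ libraries and 1 and 0 in empty vector libraries. Reads that map equally to both were not counted, so the level of Trp53 can be understated. None of the 10 genes shares exon bases with another gene of the annotation used.

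Mdm2 (ENSMUSG00000020184, chromosome 10 from 117688888 to 117710758, minus strand) is both the inhibitor of p53 and a classical p53 target. Its level was 119.7 and 122 CPM in C/EBPβ libraries against 143 and 141 CPM in empty vector libraries. Replicates lay within 2 CPM of each other and the groups did not overlap. The log2 fold change of -0.23 (SE 0.08, 95% interval -0.41 to -0.06) gave adjusted p = 0.0595, just outside the threshold. DESeq2 placed it just inside (adjusted p = 0.0499), as did edgeR with library totals only (adjusted p = 0.0490), and over the 12 alternatives the adjusted p ran from 0.0490 to 0.391. Per length, in TMM-scaled CPM per kilobase of exon (RPKM), Mdm2 amounted to 0.570 and 0.567 of the Trp53 level in C/EBPβ libraries and to 0.578 and 0.594 in empty vector libraries. The Mdm2 to Trp53 ratio of RNA thus averaged 0.569 ± 0.00197 in C/EBPβ and 0.586 ± 0.0111 in empty vector cells (SD, n = 2 each). An exact permutation test of 2 against 2 libraries cannot give a two-sided p that passes 0.05, so none is given for the ratio.

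The upstream sequences of 3 genes are printed: a called gene, the feedback gene, and the gene with the largest difference. Each is the 250 bases before the annotated start in RefSeq (GRCm38.p6), read on the strand of the gene, with capitals for matches to the motifs searched. RefSeq windows were at hand for 8 of the 10 genes, 10 windows in all, leaving Trp53inp1 and Zmat3 without one. For Ccng1 the capitals mark a tandem pair of p53 half-sites, for Mdm2 a single p53 half-site, and for Plk2 the cyclic AMP response element TGACGTCA. The Plk2 window held no match to the p53 motifs searched.
Ccng1, chr11:40755287-40755536, minus strand: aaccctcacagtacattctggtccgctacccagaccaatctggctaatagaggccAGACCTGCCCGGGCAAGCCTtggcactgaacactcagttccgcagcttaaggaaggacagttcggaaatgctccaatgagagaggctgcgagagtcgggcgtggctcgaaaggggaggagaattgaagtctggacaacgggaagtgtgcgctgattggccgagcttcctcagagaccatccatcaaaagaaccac
Mdm2, chr10:117710759-117711008, minus strand: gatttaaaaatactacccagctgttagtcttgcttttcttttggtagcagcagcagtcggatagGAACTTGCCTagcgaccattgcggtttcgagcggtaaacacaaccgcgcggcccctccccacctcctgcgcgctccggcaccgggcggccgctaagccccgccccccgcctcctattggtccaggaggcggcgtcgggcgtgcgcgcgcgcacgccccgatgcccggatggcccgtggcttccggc
Plk2, chr13:110394794-110395043, plus strand: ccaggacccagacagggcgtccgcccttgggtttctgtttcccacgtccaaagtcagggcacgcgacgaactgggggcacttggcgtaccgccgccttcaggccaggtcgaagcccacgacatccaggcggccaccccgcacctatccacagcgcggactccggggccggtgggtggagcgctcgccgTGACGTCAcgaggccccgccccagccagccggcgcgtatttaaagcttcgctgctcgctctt
A p53 half-site by its standard consensus, which reads the same on both strands, was found in windows of Trp53, Mdm2, Ccng1 and Sesn1, so 4 of 10 windows held one, against 7.13% of 32841 promoter windows. The half-site of Ccng1 lies inside its tandem pair, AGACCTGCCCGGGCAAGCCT, which has 1 mismatch to the consensus and begins 195 bases before the start. Such a pair, with no spacer, the core C and G of both half-sites kept and at most 1 other mismatch, stood in 19 windows (0.0579%). TGACGTCA, a palindrome, was in the windows of Plk2 and Btg2 and in 1.55% of all windows. It was added to the search after the sequences had been seen, as was the tandem pair. The C/EBP motif TTGCNNAA, searched on both strands, was in 0 of the 10 windows against 9.57% of all windows, and the AP-1 motif TGANTCA, which reads the same on both strands, in 0 against 6.75%. These matches describe letters only, and p53 elements known to lie in first introns, such as that of Mdm2, fall outside the windows.

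Among the growth-arrest genes, Ccng1 and Plk2 were lower in C/EBPβ cells and Btg2 was not called. Ccng1 (ENSMUSG00000020326, chromosome 11 from 40748552 to 40755311, minus strand) encodes cyclin G1, which recruits a phosphatase to Mdm2. It read 169.9 and 188 CPM in C/EBPβ libraries and 232 and 223 CPM in empty vector libraries. Every C/EBPβ value lay below every empty vector value, and the log2 fold change was -0.35 (SE 0.09, adjusted p = 0.0218). Ccng1 missed the threshold when C/EBPβ replicate 1, the library with the lower level, was left out (-0.28, adjusted p = 0.237). The same happened when empty vector replicate 1 was left out (-0.32, adjusted p = 0.0583).

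Plk2 (ENSMUSG00000021701, chromosome 13 from 110395044 to 110400844, plus strand) encodes a kinase of centriole duplication and of the G1 phase. Its level was 96.8 and 103 CPM in C/EBPβ libraries, against 183 and 188 CPM in empty vector libraries. The groups stood far apart relative to their spread (99.97 ± 4.52 CPM in C/EBPβ and 185 ± 4.0045 CPM in empty vector cells, SD, n = 2 each). The log2 fold change of -0.89 (SE 0.08, 95% interval -1.08 to -0.70) had adjusted p = 1.75e-04, and it stayed called in all 12 alternatives, between -0.94 and -0.85. Of all tested genes, 4.34% had a lower log2 fold change. The polo-like kinase genes Plk1, Plk3 and Plk4 were not called (log2 fold changes -0.08, 0.17 and -0.19), and the difference between paralogs was not tested.

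Btg2 (ENSMUSG00000020423, chromosome 1 from 134075170 to 134079120, minus strand), an antiproliferative cofactor of RNA deadenylation, had 33.6 and 26.4 CPM in C/EBPβ libraries and 32.1 and 30.02 CPM in empty vector libraries. The C/EBPβ values bracketed the empty vector values. Its log2 fold change of -0.05 (SE 0.13, 95% interval -0.34 to 0.24, adjusted p = 0.801) turned to 0.11 without C/EBPβ replicate 2, so no direction can be given.

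**Figure D2:**
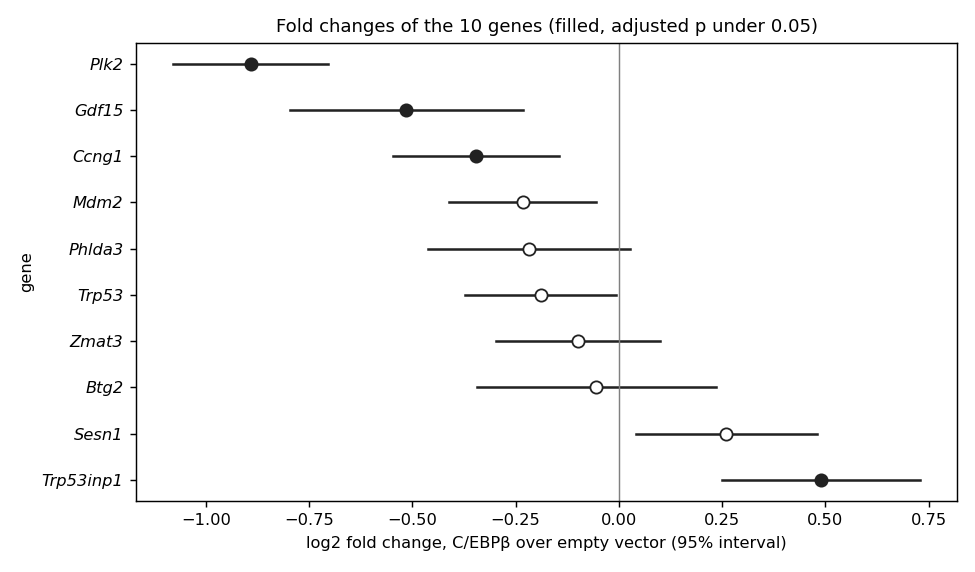
Log2 fold change of each gene (x axis, C/EBPβ over empty vector) with its 95% interval from the quasi-likelihood fit, genes down the y axis from the lowest to the highest value, filled where the adjusted p is under 0.05. Plk2 (-0.89), Gdf15 (-0.51) and Ccng1 (-0.35) are filled on the lower side and Trp53inp1 (0.49) on the higher side.

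Trp53inp1 rose, and Sesn1 did not pass. Trp53inp1 (ENSMUSG00000028211, chromosome 4 from 11156431 to 11174379, plus strand) encodes a nuclear and autophagosomal protein that assists p53 in stress. It had 28.8 and 29.1 CPM in C/EBPβ libraries against 19.3 and 22.0 CPM in empty vector libraries. The C/EBPβ replicates nearly coincided and both exceeded the empty vector replicates, with a log2 fold change of 0.49 (SE 0.10, 95% interval 0.25 to 0.73, adjusted p = 0.0103). Trp53inp1 stayed called in all 12 alternatives, at 0.39 to 0.59. Sesn1 (ENSMUSG00000038332, chromosome 10 from 41809935 to 41908424, plus strand), a sestrin that restrains the growth kinase mTORC1, had 49.1 and 42.9 CPM in C/EBPβ libraries and 38.4 CPM in both empty vector libraries. Both C/EBPβ values were the higher ones, but the C/EBPβ replicates lay further apart than the nearest values of the groups. Sesn1 did not pass (log2 fold change 0.26, SE 0.10, adjusted p = 0.0844), nor did it in any of the 12 alternatives.

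Gdf15 (ENSMUSG00000038508, chromosome 8 from 70629393 to 70632456, minus strand) encodes a secreted stress hormone of the TGF-β superfamily that suppresses appetite. Its level was 32.7 and 27.4 CPM in C/EBPβ libraries and 46.4 and 39.1 CPM in empty vector libraries. The highest C/EBPβ value was below the lowest empty vector value, but the empty vector replicates lay further apart than the nearest values of the groups. The log2 fold change was -0.51 (SE 0.12, 95% interval -0.80 to -0.23, adjusted p = 0.0170). Leaving out C/EBPβ replicate 2 ended this call (-0.39, adjusted p = 0.0596), and so did leaving out empty vector replicate 1 (-0.39, adjusted p = 0.0833).

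Phlda3 and Zmat3 did not pass. Phlda3 (ENSMUSG00000041801, chromosome 1 from 135766119 to 135769136, plus strand), a pleckstrin-homology protein that competes with Akt for membrane lipids, had 159 and 151 CPM in C/EBPβ libraries and 198 and 162 CPM in empty vector libraries. The empty vector replicates were further apart than the nearest values of the groups (log2 fold change -0.22, SE 0.11, 95% interval -0.46 to 0.03, adjusted p = 0.178). Without empty vector replicate 2, the lower control, Phlda3 passed at -0.36 (adjusted p = 0.0281), and without empty vector replicate 1 its value was -0.07. Zmat3 (ENSMUSG00000027663, chromosome 3 from 32334792 to 32366014, minus strand), a zinc-finger protein that binds RNA, had 57.3 and 52.7 CPM in C/EBPβ libraries and 60.6 and 57.0 CPM in empty vector libraries. Its groups overlapped, and the interval of its log2 fold change ran from -0.30 to 0.10 (adjusted p = 0.457).

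Per length, the transcripts of the 10 genes spanned a wide range. Phlda3 was highest in both groups, at 99.2 ± 3.53 RPKM in C/EBPβ and 115 ± 16.2 RPKM in empty vector cells (SD, n = 2 each). Trp53inp1 was lowest in both, at 4.48 ± 0.0317 RPKM in C/EBPβ and 3.19 ± 0.299 RPKM in empty vector cells. Plk2 ranked below Phlda3, Ccng1 and Trp53 in C/EBPβ cells, at 35.7 ± 1.61 RPKM, and next to Phlda3 in empty vector cells, at 66.2 ± 1.43 RPKM, where its replicates overlapped those of Ccng1 (64.7 ± 1.80 RPKM). Relative to Trp53 within the same library, Plk2 RNA stood at 0.833 and 0.870 in C/EBPβ and at 1.34 and 1.43 in empty vector libraries. Trp53 had 41.9 ± 0.612 RPKM in C/EBPβ and 47.8 ± 1.27 RPKM in empty vector cells, above Mdm2 in each (23.8 ± 0.266 RPKM in C/EBPβ and 28.0 ± 0.216 RPKM in empty vector cells). Sesn1 and Btg2, which changed places between the groups, overlapped in C/EBPβ libraries. Summed over the 10 genes, the level was 299 ± 2.73 RPKM in C/EBPβ and 374 ± 21.3 RPKM in empty vector cells, with Phlda3, Plk2 and Ccng1 among the largest contributors.

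In the authors' deposited table, 6 of the 10 genes had an adjusted p under 0.05: the 4 above, Mdm2 and Trp53. The share of all genes passing there was not computed, so this count is not set against a background. The authors' deposited table gave Mdm2 a log2 fold change of -0.28 (adjusted p = 0.0301) and Trp53 one of -0.23 (adjusted p = 0.0393). For Plk2 the authors' deposited table gave -0.93. The base means of the authors' deposited table were not in proportion to the levels in the 4 libraries: divided by mean CPM they ran from 31.5 for Gdf15 to 65.4 for Trp53inp1. Which libraries entered the authors' deposited table could not be read from the sources at hand, so it is no independent check of the 4 libraries.

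**Figure D3:**
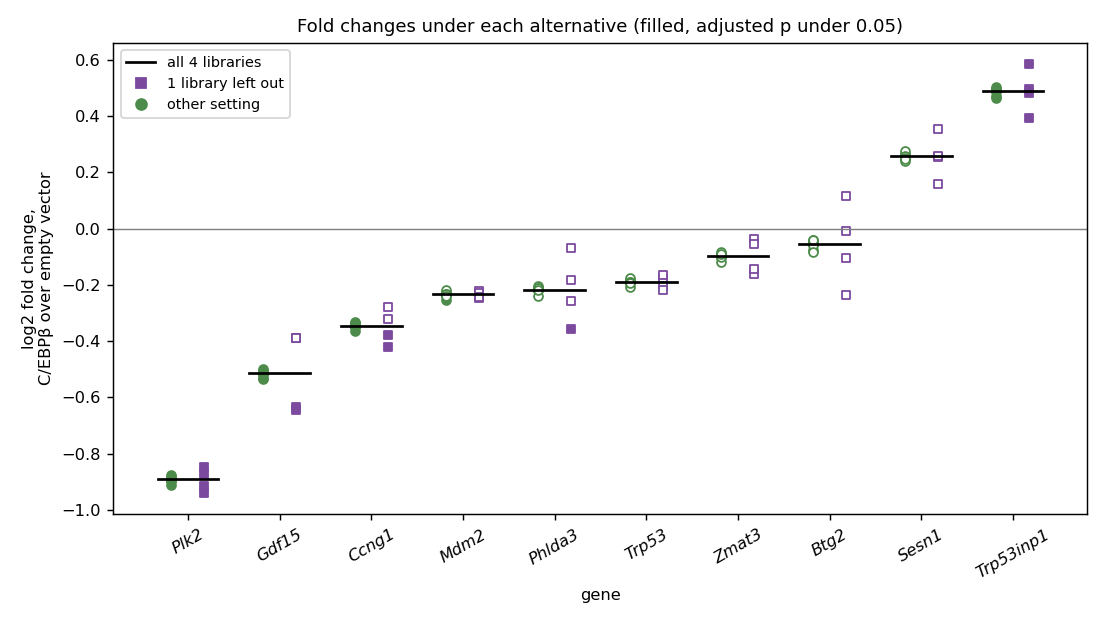
Log2 fold change of each gene (y axis, C/EBPβ over empty vector) with all 4 libraries (line), with 1 library left out (squares) and under 8 other settings (circles), filled where the adjusted p is under 0.05. Plk2 and Trp53inp1 are filled throughout, Ccng1 and Gdf15 each have 2 open squares, and the squares of Btg2 cross 0.

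Beyond the 10 genes, more of the listed p53 targets were lower than higher in C/EBPβ cells. This list and those below were chosen with earlier results of these data known. Their counts against the background are therefore descriptive only. Of 32 other target genes of p53, all tested, 11 fell and 4 rose, with 17 not called, against backgrounds of 10.8% and 14.1%. Their median log2 fold change was -0.12. Pmaip1, the death protein Noxa, had 10.4 and 14.9 CPM in C/EBPβ libraries against 42.3 and 47.3 CPM in empty vector libraries, a log2 fold change of -1.80 (adjusted p = 1.59e-04). Cdkn1a, the CDK inhibitor p21, had 122 and 134 CPM in C/EBPβ libraries against 238 and 227 CPM in empty vector libraries (-0.86, adjusted p = 2.97e-04). For both genes the libraries of the groups lay far apart. The other 9 that fell were Bbc3, Perp, Gadd45a, Tigar, Eda2r, Apaf1, Slc19a2, Cd82 and Dyrk3, between -1.40 (Perp) and -0.37 (Slc19a2). Fas, a death receptor, rose to 8.10 and 6.80 CPM in C/EBPβ libraries, against 3.79 and 2.22 CPM in empty vector libraries (1.30, adjusted p = 0.00528). Ak1, adenylate kinase, rose by 0.56 (adjusted p = 0.00684), with Ercc5, a repair endonuclease (0.44), and Ckap2 (0.25, adjusted p = 0.0491). Bax, Sesn2, Ddb2, Ppm1d and Aen were among those not called. Without C/EBPβ replicate 1 the count was 9, with 6 lower and 3 higher.

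Of 26 regulators and relatives of p53, 23 could be tested, of which 2 rose, 3 fell and 18 were not called (median -0.01). The share called, 21.7%, was near the 24.9% of all genes tested. Mdm4, the partner of Mdm2 that blocks p53 activity, rose to 104 and 92.3 CPM in C/EBPβ libraries, against 58.3 and 74.5 CPM in empty vector libraries (log2 fold change 0.56, adjusted p = 0.0114). Mdm2 and Mdm4 thus had fold changes of opposite sign, a difference that was not tested. The methyltransferase gene Setd7 also rose (0.41, adjusted p = 0.0131). The deubiquitinase gene Usp10 (-0.39, adjusted p = 0.00973), the deacetylase gene Sirt1 (-0.39, adjusted p = 0.0214) and Ppp1r13b (-0.46, adjusted p = 0.0286), encoding a p53-binding protein, fell. Without C/EBPβ replicate 1 the count dropped to 1 (Mdm4), while the fold changes of the others stayed on their side of 0. They were then 0.32 for Setd7 (adjusted p = 0.122), -0.34 for Usp10 (adjusted p = 0.111), -0.30 for Sirt1 (adjusted p = 0.189) and -0.42 for Ppp1r13b (adjusted p = 0.0741). Setd7 was also not called without empty vector replicate 1 (0.35, adjusted p = 0.0523), nor Sirt1 (-0.35, adjusted p = 0.0772) and Ppp1r13b (-0.31, adjusted p = 0.0974) without empty vector replicate 2. The kinases Atm, Atr, Chek1 and Chek2 were not called (log2 fold changes 0.16, 0.09, -0.01 and -0.11). Cdkn2a, whose ARF product restrains Mdm2, had 0 counts in all 4 libraries, where 3 counts would correspond to 0.0776 and 0.0326 CPM in C/EBPβ and 0.0733 and 0.0799 CPM in empty vector libraries. Trp63 and Trp73, the relatives of Trp53, had at most 14 and 4 counts in a library.

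Of 22 paralogs of the 10 genes, Mdm4 among them, 16 could be tested, of which 6 rose, against a background of 14.1%, and 10 were not called. Their median log2 fold change was 0.14. Sesn3, a sestrin like Sesn1, had 68.7 and 57.2 CPM in C/EBPβ libraries against 28.0 and 32.2 CPM in empty vector libraries (1.06, adjusted p = 3.99e-04). Trp53inp2, the relative of Trp53inp1 that acts in autophagy, rose by 0.39 (adjusted p = 0.00679), as did Ccng2, the relative of Ccng1, by 0.37 (adjusted p = 0.0109). Ccng1 and Ccng2 had opposite signs, and that difference was not tested. Btg3 and Tob1, antiproliferative relatives of Btg2, rose by 0.48 (adjusted p = 0.0414) and 0.42 (adjusted p = 0.00907).

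**Figure D4:**
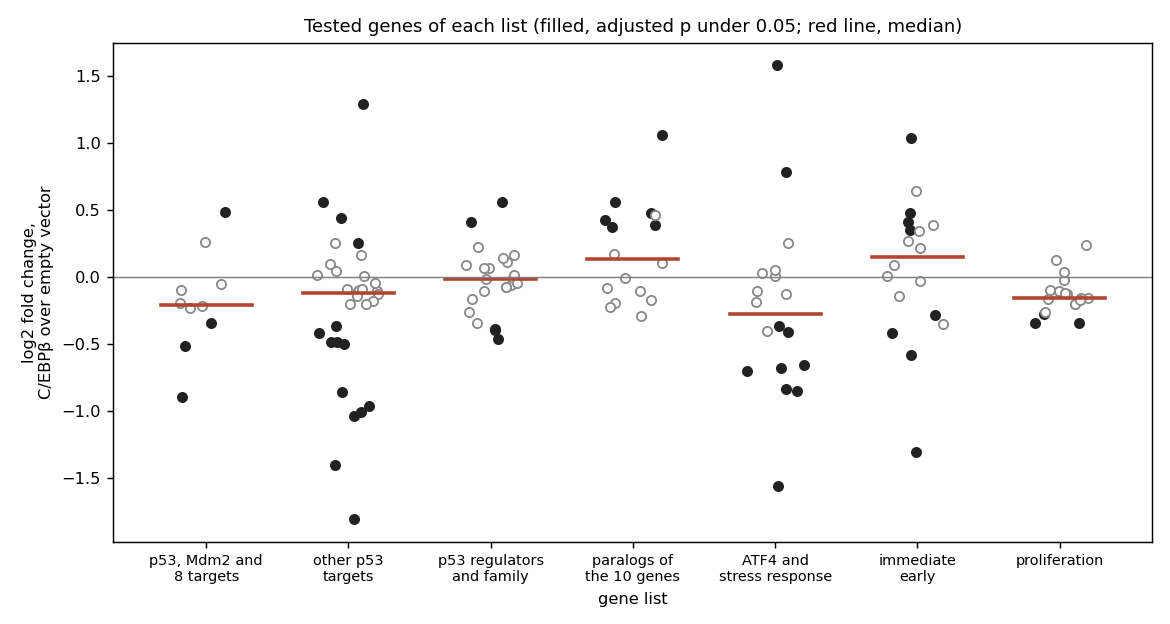
Log2 fold change (y axis, C/EBPβ over empty vector) of each tested gene in 7 lists, filled where the adjusted p is under 0.05, with a red line at the median of the list. Medians run from -0.28 (ATF4 and stress response) to 0.15 (immediate early genes), with -0.20 for the 10 genes and -0.12 for the other p53 targets.

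Genes that answer to ATF4 or to growth factors, as Gdf15, Btg2 and Plk2 also do, were read in the same fit. In the ATF4 and integrated stress response list, 8 of 18 fell and 2 rose, against backgrounds of 10.8% lower and 14.1% higher (median -0.28). Atf3, a stress-induced repressor, had 5.09 and 6.06 CPM in C/EBPβ libraries against 16.5 and 16.7 CPM in empty vector libraries (-1.56, adjusted p = 1.25e-04). Phgdh, of serine synthesis, fell by 0.84 on the log2 scale (adjusted p = 8.02e-04). Vldlr, a lipoprotein receptor, rose by 1.58 (adjusted p = 1.87e-04) and Ddit4, an inhibitor of mTORC1, by 0.78 (adjusted p = 3.40e-04). Atf4 RNA itself was at 0.03 (adjusted p = 0.826). Of 18 immediate early genes, which growth factors switch on within minutes, 4 rose and 4 fell, against the same backgrounds (median 0.15). Junb rose by 1.04 (adjusted p = 0.00342) and Ier5 by 0.36 (adjusted p = 0.0114), whereas Klf4 fell by 1.31 (adjusted p = 5.77e-05) and Klf6 by 0.41 (adjusted p = 0.00756). With 1 C/EBPβ library the fold change of Ier5 was nearly the same but missed the threshold, at 0.345 when C/EBPβ replicate 1 was left out (adjusted p = 0.0931) and 0.36 when C/EBPβ replicate 2 was (adjusted p = 0.0561). Without C/EBPβ replicate 1 fewer genes of this list were called, more of them lower than higher.

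Among proliferation genes, 3 of 18 were lower, 0 were higher and 15 were not called by edgeR. The share called was thus 16.7%, all lower. Of all genes tested 24.9% were called, 10.8% lower and 14.1% higher. Of the 18 fold changes 15 were negative, called or not (median -0.16). The lower genes were Ccne2, a cyclin of the G1 to S transition (-0.34, adjusted p = 0.02003), the spindle checkpoint kinase gene Bub1 (-0.34, adjusted p = 0.0392) and Mcm3 (-0.27, adjusted p = 0.0461). Without C/EBPβ replicate 1, edgeR called 0 of the 18, with 1 at an unadjusted p under 0.05, and without empty vector replicate 1 it called 1. Ccne2 was not called, at similar log2 fold changes, when C/EBPβ replicate 1 (-0.30, adjusted p = 0.202) or empty vector replicate 1 (-0.31, adjusted p = 0.0555) was left out. Bub1 stood at -0.28 without C/EBPβ replicate 1 (adjusted p = 0.239) and at -0.23 without empty vector replicate 2 (adjusted p = 0.120).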

How the data were processed

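The deposited counts, per the file headers, are fragments per gene from featureCounts 1.5.1 in reverse-stranded mode on GENCODE M12, and reads that map to several places were not counted. The submitters' processing notes name HISAT2 2.0.4, GRCm38 and featureCounts 1.4.6, a version that differs from the headers. The authors' deposited comparison table carries DESeq2 column names, with log2 fold changes and their errors (log2 scale), base means (signal), test statistics (score) and p-values, raw and adjusted. It was quoted and not retested.

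Counts were joined by gene identifier, and symbols for 49367 of 49585 genes came from that table or the reference gene names. Genes passing filterByExpr (minimum count 10, minimum total 15; 15078 genes) were tested with edgeR 4.0.16 in R 4.3.3, by its quasi-likelihood test with TMM scaling, no covariate and Benjamini-Hochberg adjustment, with calls at 0.05. The SE is the log2 fold change over the root of its F statistic, and intervals are 95%. RPKM used the exon length in the files. Floors of 3 counts cover counting error only. The fit was tested on simulated data.

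The genes and lists were chosen with earlier results of these data known. All 10 genes were named. From each further list, the cell type markers included, the rule names the 2 called genes with the smallest adjusted p in each direction. Others named were not picked by this rule, and those outside the markers were chosen after their values were seen. The alternatives were DESeq2 1.42.0, limma-voom (limma 3.58.1), other scalings and filters, a replicate block, C/EBPβ replicate 2 thinned to the smallest library, and each library left out.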

Additional observations from a re-analysis of the deposited data

How the results depend on the processing

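Over 12 alternatives, Plk2, Trp53inp1, Trp53, Sesn1 and Zmat3 kept their direction and their side of the threshold. Ccng1 and Gdf15 kept their direction and each lost the call in 2 of them, Mdm2 gained it in 2 and Phlda3 in 1. Btg2 ranged from -0.23 to 0.11 with 1 library left out. With 1 library left out, the count of called genes ranged from 2493 to 3462 over all genes, from 2 to 5 among the 10 genes, from 9 to 14 among other p53 targets, from 1 to 6 among regulators, from 4 to 8 among immediate early genes and from 0 to 2 among proliferation genes, while paralogs gave 5 to 7 and the ATF4 list 9 to 11. These fits compare 3 libraries, so that the lone library of a group is assumed to vary like the other group. The cause of each lost call was not tested. With a stricter filter of 5 CPM in 2 libraries, 10583 genes were tested and 2724 called. Without the filter 26623 were tested and 4506 called. Same-numbered libraries share a number but no stated pairing: their deviations correlated at 0.147, and with the replicate block 4536 genes were called over all, with 4 of the 10. Library totals as the scaling moved the median of all genes to -0.018. With 2 libraries per group, differences as small as those of Trp53 and Mdm2 lie near what the quasi-likelihood test can separate. Its unadjusted p was 0.044 for Trp53 and 0.0158 for Mdm2, although the replicates of each gene lay closer together than the groups.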
